A study of Mus musculus with 13 samples.

Results

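The longest protein-coding genes of the mouse were examined as landing places for the Sleeping Beauty transposon. A gene was taken as very long where its annotated span reached 500 kb on any autosome from 1 to 19 other than 6, in GENCODE M21 on GRCm38. This gave 201 genes among 19695 protein-coding genes on the 18 chromosomes. Their median span was 731.5 kb, the shortest was 501.8 kb and the longest 4435 kb, and 50 reached 1 Mb. Together they covered 170.7 Mb, or 7.56% of the annotated span of these chromosomes.

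The cells were F123, a hybrid mouse embryonic stem cell line of Cast and 129 parentage, of wild type genotype and grown without serum in 2i and LIF. Transposons with a T7 promoter were mapped by T7 in situ transcription of purified genomic DNA and sequencing of the RNA across the transposon end. In the plasmid pool (rnd in the labels) the transposase moved transposons out of transfected multi-copy plasmids. In the remobilized pool (post) it moved the transposons already in the genome of a TRACK-IT parental line, and 244 sites of that pool lay on chromosome 6, which is not considered here. Each pool was 1 library of many cells, both from the same sequencing run, so every test below compares sites of single libraries and has no replicate behind it. A control library without transposons and 9 clonal lines of rad21-dTag genotype from another run served as background.

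Sleeping Beauty moves by cut and paste and targets TA dinucleotides, and its preference for active genes is known to be weaker than that of many retroviruses. When it leaves a chromosomal donor it tends to land near that donor, a behaviour called local hopping. Very long genes consist almost entirely of intron. Many encode proteins of neurons, such as synaptic adhesion molecules and ion channels, and several are known as common fragile sites, regions that break under replication stress. RNA was not measured from these genes here, so their expression in the cells was not tested.

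The target at single bases could be read only where a site fell within an annotated exon, since those bases are held in the transcript sequences. Of the 15 exonic plasmid sites in very long genes, 14 (93.3%) had TA exactly at the insertion point, with the deposited position as its second base on the plus strand, and all 15 had TA within 2 bp. Only sites with TA exactly at the insertion point could be shown, so the TA in the sequences below follows from that choice. Of these, the 2 sites with the most reads, and the first 2 by name of those with 2 reads, are given. The letters are GENCODE M21 transcript bases on GRCm38, written 5′ to 3′ on the strand of the deposited site, with the TA target in capitals and 15 bases on either side of its middle.

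Ctnnd2, chr15:30670193-30670222, plus strand, 5 reads: attttttaatgataTAgtctaccttttagc

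Frmd4a, chr2:4019973-4020002, minus strand, 4 reads: tgtatattcacacaTAgaaggatatgtgat

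Ank2, chr3:127335110-127335139, minus strand, 2 reads: ttttggtaactggaTAagtcaaacctctag

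Macrod2, chr2:140422105-140422134, minus strand, 2 reads: aaagtaattaattaTAagtacaaagtcata

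Ctnnd2 encodes delta-catenin of cell junctions, Ank2 an ankyrin that anchors membrane proteins, Macrod2 a hydrolase of mono-ADP-ribose and Frmd4a a scaffold protein. The 4 sites share the TA by which they were selected. They come from unrelated genes on different chromosomes, apart from Frmd4a and Macrod2, both on chromosome 2.

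The plasmid library held 78338 reads, of which 63031 had a position, and gave 31146 sites after lines within 10 bp were merged, 27705 of them on the 18 chromosomes. The remobilized library was far shallower, with 2619 reads, 2116 of them placed, and 746 sites, of which 483 lay on these chromosomes. The control library had 1 read and 0 sites. The clones gave 37 sites on these chromosomes, 0 of them in a very long gene, which allows a share of up to 8.11% by the limit of 3 counts. No site within a very long gene was found in both pools. Read counts carry no molecular identifiers, so all intervals cover counting error of sites only.

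Very long genes received fewer plasmid insertions per Mb than the other protein-coding genes. They held 1868 sites, or 10.9 sites per Mb (95% exact Poisson interval 10.5 to 11.5), while the other 19494 genes held 10710 sites, or 14.1 per Mb (13.8 to 14.4). The ratio of the 2 densities was 0.776 (0.738 to 0.815, adjusted p = 3.55e-25, two-sided exact binomial test on sites with Benjamini-Hochberg adjustment over both pools). At the density of the other genes, 2409 sites would have fallen in the very long genes. No difference from intergenic sequence, at 11.3 per Mb, was detected, with a ratio of 0.972 (0.925 to 1.02, adjusted p = 0.393, exact binomial test). Against the intergenic flanks within 500 kb of the same genes, at 11.1 per Mb, the ratio was 0.983 (0.915 to 1.06, adjusted p = 0.726, exact binomial test).

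These densities are per Mb of annotated sequence and were not corrected for the number of TA targets or for how much of the sequence reads can be placed in, neither of which was computed here. The read threshold bears on the plasmid comparisons. With only sites of at least 5 reads, 139 were left in very long genes, the ratio to the other genes was 0.891 (adjusted p = 0.227, exact binomial test), and the ratio to intergenic sequence was 1.32 (adjusted p = 0.0159, exact binomial test). Sites with a single read made up 44.0% of those in very long genes and 44.1% of those in the other genes of this pool (Fisher's exact test, odds ratio 0.996, adjusted p = 0.940).

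The very long genes were also sparse in the remobilized pool. They held 11 sites, or 0.0645 per Mb (0.0322 to 0.115), against 221 sites or 0.291 per Mb (0.254 to 0.332) in the other protein-coding genes. The ratio was 0.221 (0.109 to 0.404, adjusted p = 1.39e-09, exact binomial test), and 49.7 sites would have fallen in them at the density of the other genes. Here they were also below intergenic sequence, which had 0.187 sites per Mb, with a ratio of 0.345 (0.170 to 0.629, adjusted p = 0.000519, exact binomial test, Benjamini-Hochberg over 11 tests). Their flanks held 19 sites, or 0.162 per Mb (0.0973 to 0.252).

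Support for the remobilized sites was thin. Of the 11, 9 (81.8%) rested on 1 read, against 41.6% of the sites in other genes (Fisher's exact test, odds ratio 6.31, p = 0.0115, adjusted p = 0.0229). With at least 2 reads a site, 2 sites were left in very long genes and the ratio to other genes was 0.0689 (0.00826 to 0.254), and with at least 5 reads 0 were left. The ratio to intergenic sequence was 0.121 (0.0145 to 0.447) with at least 2 reads. With at least 5 reads it was 0 (0 to 1.31) and no longer passed (adjusted p = 0.224, exact binomial test). Without a read minimum, the ratio to other genes of 100 to 500 kb alone was 0.374 (0.178 to 0.713, adjusted p = 0.00119, exact binomial test).

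This share differed between the pools. Very long genes held 14.9% of the protein-coding sites of the plasmid pool and 4.74% of those of the remobilized pool, 11 of 232. The odds ratio was 0.285 (0.140 to 0.522, adjusted p = 2.22e-05, Fisher's exact test).

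Densities were then laid out by the span of the gene, which shows where the limit of 500 kb falls. Here a base in genes of different classes counted in each of those classes, the very long ones included. In the plasmid pool, genes up to 20 kb had 14.3 sites per Mb, those of 20 to 50 kb 14.2, those of 50 to 100 kb 15.2 and those of 100 to 250 kb 14.2. The density was 12.7 (12.1 to 13.2) at 250 to 500 kb, 11.4 (10.8 to 12.1) in the 151 genes of 500 to 1000 kb, and 10.3 (9.57 to 11.1) in the 50 genes of 1000 kb or more. The intervals of the plasmid classes up to 250 kb overlapped, and so did those of the classes of 500 to 1000 kb and of 1000 kb or more. The interval at 250 to 500 kb lay below those of all shorter classes, so the fall began below the limit. The remobilized density was lower in each class than in the one before it, but the intervals of neighbouring classes overlapped. The interval of genes up to 20 kb lay above those of the classes from 100 kb on. It was 0.519 per Mb up to 20 kb, 0.417 at 20 to 50 kb, 0.339 at 50 to 100 kb, 0.20 at 100 to 250 kb and 0.127 at 250 to 500 kb. The very long genes themselves had 0.0700 per Mb (7 sites) below 1000 kb and 0.0566 (4 sites) above it, with intervals that overlapped widely.

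**Figure D1:**
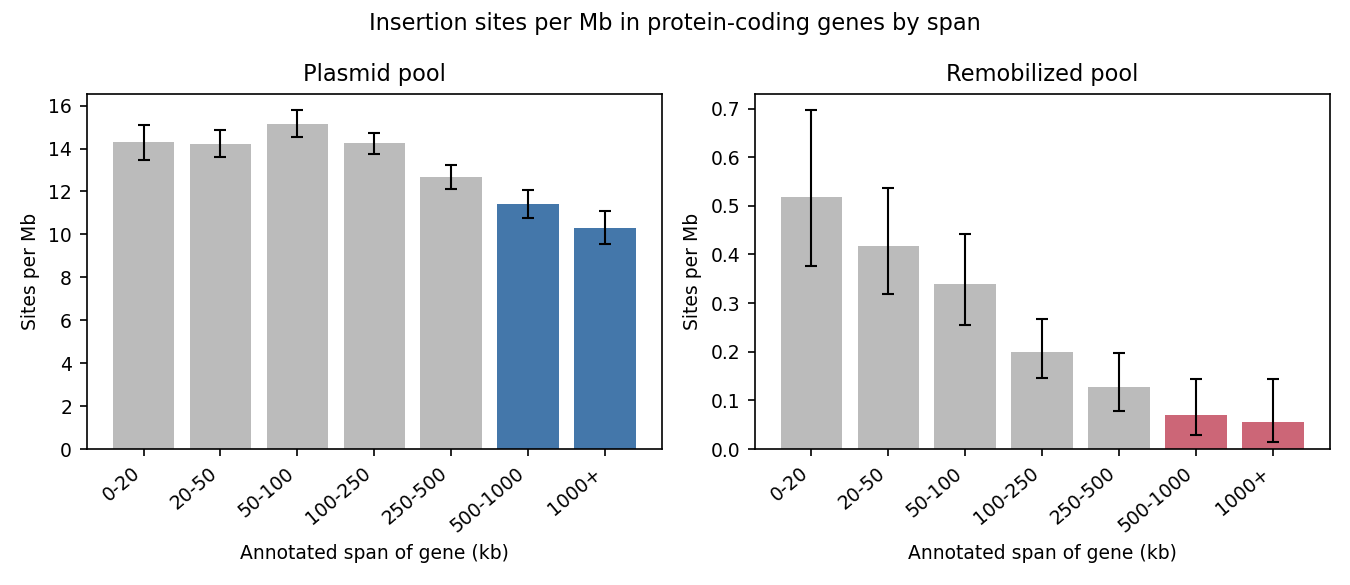
Sites per Mb (vertical axes) in protein-coding genes grouped by annotated span in kb (horizontal axes), for the plasmid pool on the left and the remobilized pool on the right. Bars are single-library densities, error bars are 95% exact Poisson intervals, and coloured bars are the very long genes: the plasmid density was 15.2 at 50 to 100 kb and 10.3 at 1000 kb or more, and the remobilized density went from 0.519 to 0.0566.

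The genes on either side of the limit show how coarse a single gene is. Just inside it, Edil3 (501.8 kb), which encodes an integrin ligand, had 8 plasmid sites. Dock1 (503.0 kb), an activator of Rac, had 2, and Car10 (503.7 kb), of the carbonic anhydrase family, had 4. Just outside it, Dnm3 (495.6 kb), a dynamin, had 6, Cacna1e (493.8 kb), a calcium channel subunit, had 5, and Abca13 (492.3 kb), an ABC transporter, had 3. The 2 sets overlapped, and none of the 6 genes had a remobilized site.

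The lower plasmid density was seen on most chromosomes. Very long genes had fewer sites per Mb than the other genes of their own chromosome on 17 of 18, with a median ratio of 0.794 and the lowest ratio, 0.629, on chromosome 11. Chromosome 18 was the exception, with a ratio of 1.23, from 40 sites in 4 very long genes. One of these was Dcc, the netrin receptor of axon guidance, with 21 sites, and the other 19 sites lay in Gm42416, Gm37013 and Gm37388. Those are overlapping gene models across the clustered protocadherins, 32 of which lie inside Gm42416. Very long genes were below intergenic sequence on 10 of the 18 chromosomes. For remobilized sites they were below the other genes on 18 of 18, with 0 sites on 9 of them.

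**Figure D2:**
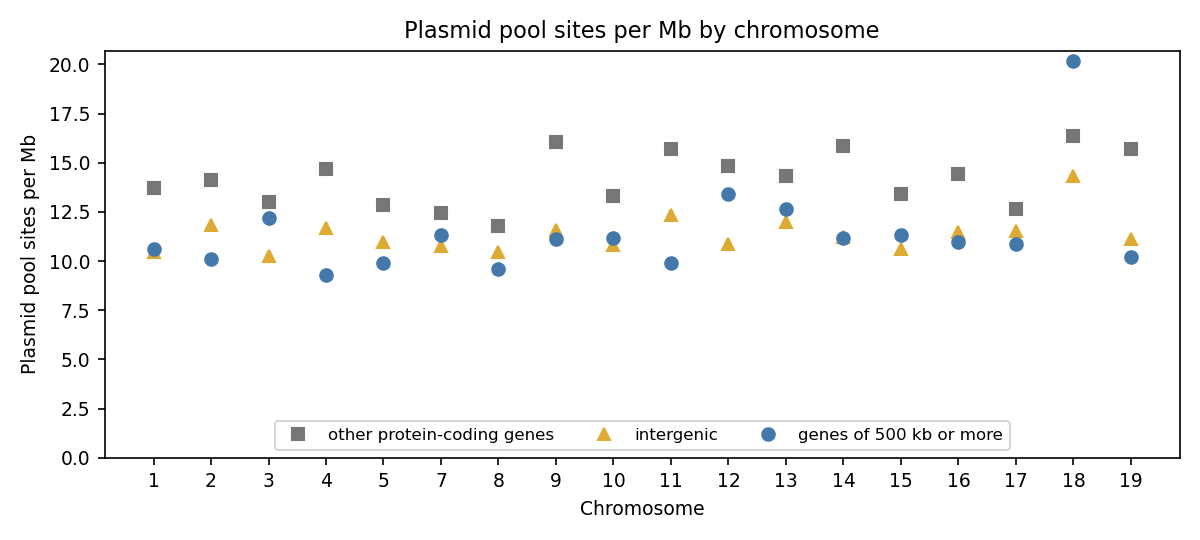
Plasmid pool sites per Mb (vertical axis) on each of the 18 chromosomes (horizontal axis) for very long genes (circles), other protein-coding genes (squares) and intergenic sequence (triangles), each point a single-library density without an error bar. The circles lie below the squares on 17 chromosomes and above them on chromosome 18.

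Every one of the 201 genes had at least 1 plasmid site. Counts ran from 1 to 44 with a median of 8, and densities from 1.95 to 26.9 per Mb with a median of 10.5 and quartiles of 8.03 and 13.9. A gene was compared with the number of sites that its span would hold at the density of the rest of its chromosome. Of the very long genes, 126 (62.7%) were below this number and 75 above, with a median ratio of 0.854. Of the 2024 genes of 100 to 500 kb, 49.9% were below, with a median ratio of 1.01. Within the very long genes, density had little relation to span (Spearman's rho -0.0286, Pearson's r -0.0661, across genes of 1 library, which are not independent replicates). The ratio of the variance of the counts to that expected from counting alone was 1.49 in very long genes and 1.29 in genes of 100 to 500 kb. The longest stretch without a plasmid site had a median of 233.0 kb over the very long genes, and the highest value was 743.5 kb, in Pcdh15.

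**Figure D3:**
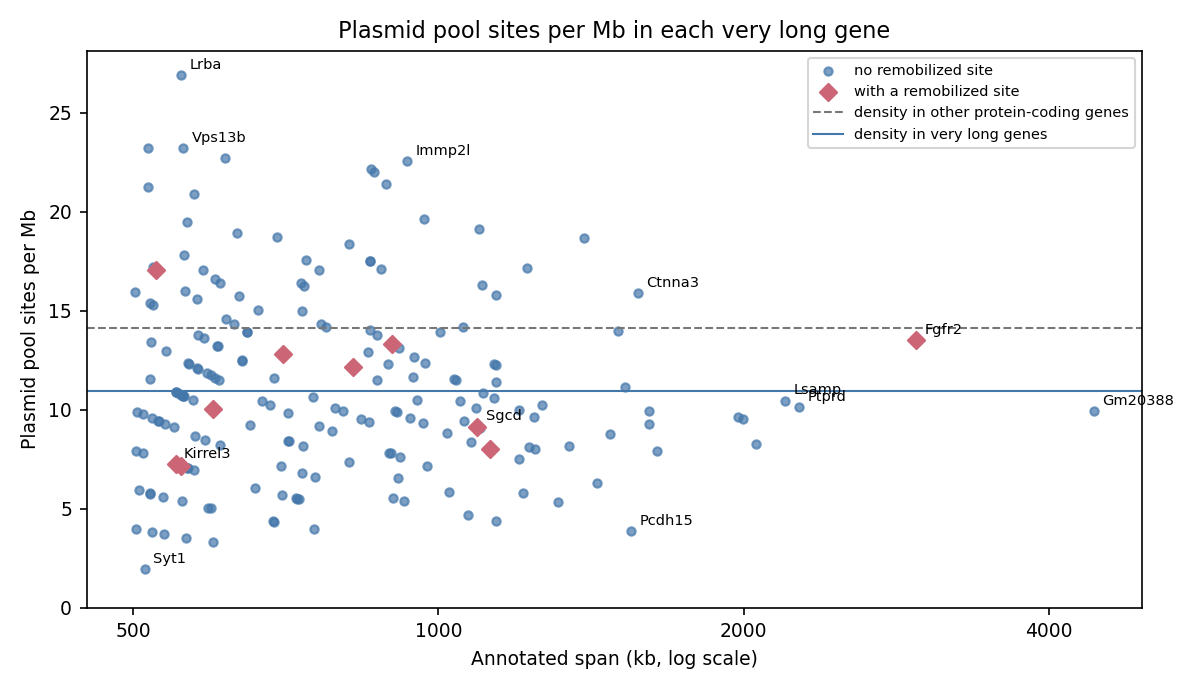
Plasmid pool sites per Mb (vertical axis) against annotated span in kb (horizontal axis, log scale) for the 201 very long genes, 1 point per gene. Diamonds mark the 10 genes that also held a remobilized site, and the lines give the densities of 10.9 per Mb in very long genes and 14.1 per Mb in other protein-coding genes.

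None of the 201 genes departed from its chromosome after adjustment. In the plasmid pool 0 rose above and 0 fell below (exact binomial test per gene, Benjamini-Hochberg over 19695 genes), against 0.107% of all protein-coding genes above, 21 genes, 0.148% of genes of 100 to 500 kb above, and 0% of either below. At an unadjusted p below 0.05, 7 very long genes (3.48%) were above, against 3.02% of all genes and 6.23% of genes of 100 to 500 kb. Another 6 (2.99%) were below, against 0.0609% of all genes and 0.296% of genes of 100 to 500 kb. A gene with few expected sites cannot fall below by this test, whatever its density. A short gene with a low enough expected number can pass above on 1 site, so the share of all genes is not a like comparison. Of remobilized sites, 0 very long genes had a number above and 0 below, adjusted or unadjusted, against 0.0102% of all genes above after adjustment. Without adjustment 0.98% of all genes and 2.03% of genes of 100 to 500 kb were above, and 0% below. These shares cannot be set against the 0 very long genes, since a gene with a low enough expected number passes on 1 site, and each very long gene was expected to hold at least 0.0605 sites, too many for 1 site to pass.

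Among the 10 longest genes, 9 had fewer plasmid sites than expected. The longest model, Gm20388 (chr8:119910841-124345722, plus strand, 4435 kb), held 44 sites where 48.3 were expected, and contains 71 other protein-coding genes. Fgfr2 (chr7:130162451-133123350, minus strand, 2961 kb), a receptor for fibroblast growth factors, held 40 where 33.8 were expected. Its model contains 29 other protein-coding genes, while RefSeq gives the gene 104 kb.

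The other 8 have about the same span in RefSeq. Ptprd, a receptor tyrosine phosphatase (2271 kb), and Lsamp, an IgLON adhesion protein (2197 kb), each held 23 sites, where 29.2 and 27.1 were expected. Lrp1b, an LDL receptor relative, held 17 where 26.0 were expected (8.26 per Mb, unadjusted p = 0.0917, exact binomial test). Macrod2 and Dlg2, a synaptic scaffold, each held 19, where 25.2 and 22.7 were expected. Csmd1, a membrane protein of the complement system, held 13 where 17.9 were expected. Nrxn3, a presynaptic neurexin, held 16 where 19.7 were expected. Fhit, a diadenosine polyphosphate hydrolase, held 15 where 20.4 were expected. For each of these 8 genes the counting interval included the chromosome's density.

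The densest genes were Lrba, Vps13b, Rad51b, Tenm3 and Immp2l, beside the protocadherin models. Lrba (chr3:86224680-86782692), a BEACH-domain protein of vesicle traffic, held 15 sites or 26.9 per Mb (15 to 44.3) where 6.18 were expected (p = 0.00189, adjusted p = 0.589, exact binomial test). Vps13b, a lipid transfer protein of the Golgi, held 13 sites (23.2 per Mb), and Rad51b, of homologous recombination, held 12 (23.2 per Mb). Tenm3, a teneurin of synaptic partner choice, held 14 (22.7 per Mb), and Immp2l, a peptidase of the inner mitochondrial membrane, held 21 (22.5 per Mb). Of the 21 sites of Immp2l, 18 lay upstream of its midpoint, a split noticed after its values were seen. Gm37388, Gm37013 and Gm42416 shared the same 19 sites, at 22.2, 22.0 and 21.4 per Mb.

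The sparsest genes held 1 to 6 sites each. Syt1, the calcium sensor of transmitter release, held 1 site (1.95 per Mb) where 6.03 were expected. Sorcs3, a sortilin-family receptor, held 2 where 7.92 were expected, and Kcnq5, a potassium channel, held 2 where 6.41 were expected. Iqcm, an IQ-motif protein, Skint5, of the Skint family, and Dock1 also held 2 each, where 5.84, 6.69 and 5.78 were expected. Negr1, an IgLON protein related to Lsamp, held 3 where 8.42 were expected. Pcdh15 (chr10:73099342-74649737), the protocadherin of hair-cell tip links, was the only one of these 8 longer than 1000 kb. It held 6 sites, or 3.87 per Mb (1.42 to 8.42), where 18.3 were expected (p = 0.00191, adjusted p = 0.589, exact binomial test).

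The very long genes were also described by the roles of their products, in 7 lists that may share genes. The lists are neither complete nor pure: Asic2, an acid-sensing ion channel with 10.1 sites per Mb, stands in the list of intracellular proteins, as do the sarcoglycans Sgcd and Sgcz of the membrane, and Grip1, a glutamate receptor scaffold with 18.9, stands in none. The densities below describe the listed genes, have no test, and the value to read them against is 10.9 per Mb with a median of 10.5 per gene over all 201, of which 126 (62.7%) were below their chromosome's number. Adhesion molecules and synapse organisers, 36 genes, had 10.2 sites per Mb (9.21 to 11.3) with a median of 9.93, from Pcdh15 at 3.87 to Tenm3 at 22.7, and 23 of them were below their chromosome's number. The list of glutamate and GABA receptors with their scaffolds, 12 genes, had 10.9 (9.00 to 13.2) with a median of 10.5, from Sorcs3 at 3.34 to Grik2, a kainate receptor subunit, at 18.7, and 8 were below. With at least 5 reads a site, this list held 2 sites and its density was 0.240 of that of all very long genes, against 0.999 without a minimum. The list of ion channels and their partners, 12 genes, had 9.19 (7.30 to 11.4) with a median of 8.28, from Kcnq5 at 3.55 to Ryr3, a ryanodine receptor, at 17.1, and 9 were below.

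The list of axon guidance genes and receptor phosphatases or kinases held 20 genes, some of them for ligands rather than receptors. It had 11.1 (9.63 to 12.8) with a median of 10.5, from Ptprm at 4.36 to Dcc at 19.1, and 13 were below. Transcription and RNA-binding factors, 12 genes, had 10.8 (8.93 to 13.0) with a median of 11.4, and 9 were below. The list of intracellular enzymes and signalling proteins, 47 genes, had 11.8 (10.7 to 12.9) with a median of 11.4, and 25 were below. The 63 genes in no list had 11.2 (10.2 to 12.2) with a median of 10.7, and 39 were below. Each list had a density below the 14.1 of other protein-coding genes, with an interval that did not reach it. The intervals of the lists overlapped one another, and no order among them is read from these densities.

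Genes of common fragile sites, 25 of them, had 11.0 sites per Mb (9.85 to 12.2) with a median of 10.7, and 15 were below their chromosome's number. Fhit, at 9.31 per Mb, and Wwox, an oxidoreductase at another classical fragile site, at 6.57, were under the density of all very long genes. Immp2l, at 22.5, was above it. Wwox and, above, Dcc, Asic2, Grip1, Sgcz, Grik2, Ryr3 and Ptprm were named after their values were seen.

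**Figure D4:**
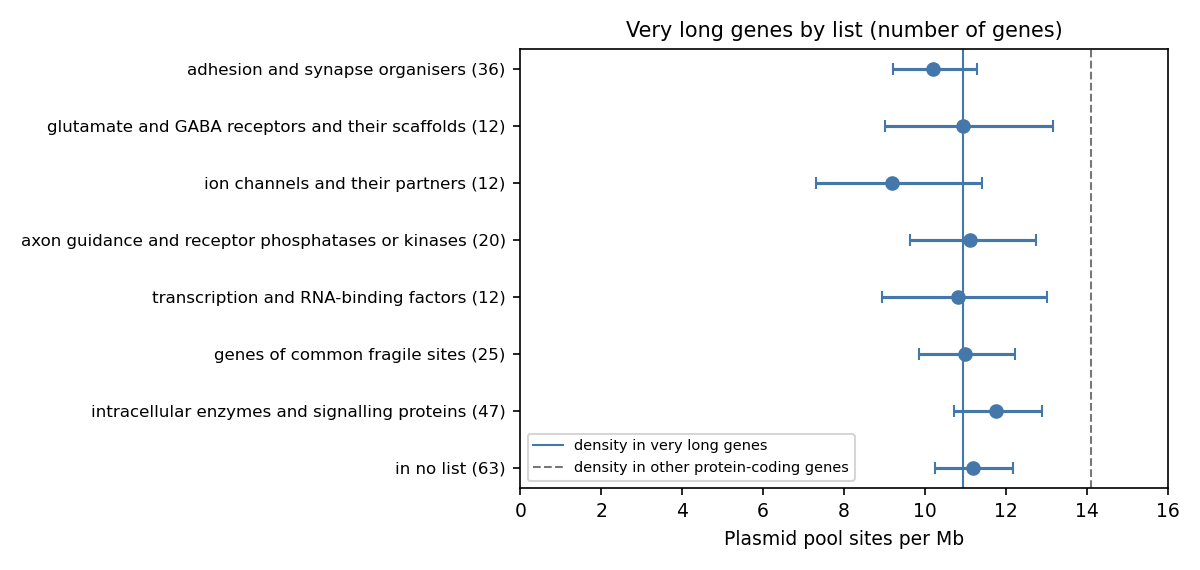
Plasmid pool sites per Mb (horizontal axis) in each list of very long genes (vertical axis, number of genes in parentheses), with 95% exact Poisson intervals as error bars. The solid line is the density of all very long genes, 10.9, the dashed line that of other protein-coding genes, 14.1, and each interval lies to the left of the dashed line.

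No preferred orientation was detected. In the plasmid pool 924 of 1868 sites in very long genes, 49.5% (47.2 to 51.8, Clopper-Pearson), pointed along the gene, which did not differ from equal shares (adjusted p = 0.726, exact binomial test). In other protein-coding genes the sense share was 47.9%, and the odds ratio between the 2 classes was 1.07 (adjusted p = 0.393, Fisher's exact test). By span, the sense share was 42.1% (39.3 to 44.9) in genes up to 20 kb and between 48.5% and 49.9% in the 6 longer classes. Of the 11 remobilized sites, 8 were in sense orientation, 72.7% (39.0 to 94.0, adjusted p = 0.393, exact binomial test), a number too small to tell from equal shares. In the other protein-coding genes of the remobilized pool the sense share was 57.0% (50.2 to 63.6), and the difference was not tested.

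No preferred position along the gene was detected either. Upstream of the midpoint lay 936 of 1868 plasmid sites, 50.1% (47.8 to 52.4, adjusted p = 0.945, exact binomial test). With each gene divided into 10 equal parts from the 5′ to the 3′ end, the shares ran from 8.24% in the last part but one to 11.1% in the last. The interval of the 8.24%, 7.04 to 9.58, did not include the even share of 10%, and those of the other 9 parts did; the parts were not tested one by one. The first 50 kb held 119 sites, 11.9 per Mb against 10.9 in the rest, with a ratio of 1.10 (0.903 to 1.32, adjusted p = 0.445, exact binomial test). Of the remobilized sites 3 of 11, 27.3% (6.02 to 61.0), lay upstream of the midpoint (adjusted p = 0.393, exact binomial test). In the other protein-coding genes of that pool the upstream share was 57.9% (51.1 to 64.5), and the difference was not tested.

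**Figure D5:**
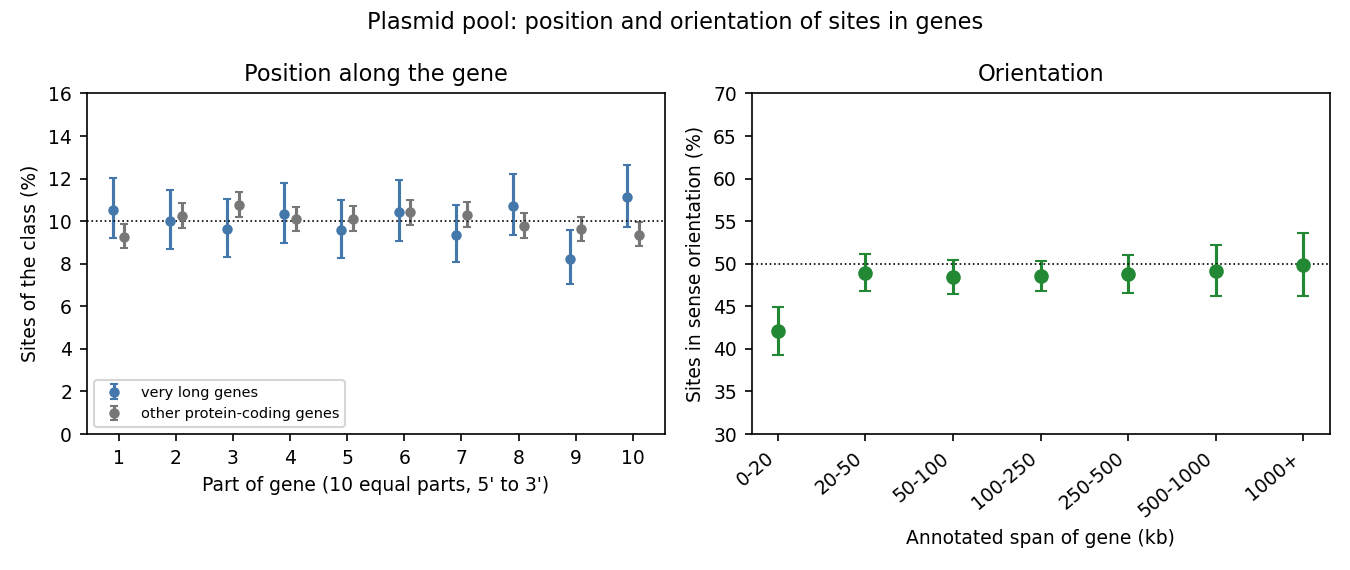
Plasmid pool only. Left, percent of the sites of a class (vertical axis) in each of 10 equal parts of the gene from the 5′ to the 3′ end (horizontal axis), for very long and other protein-coding genes; right, percent of sites in sense orientation (vertical axis) by annotated span in kb (horizontal axis). Error bars are 95% Clopper-Pearson intervals and the dotted lines mark even shares: the intervals of the very long genes include 10% in each part but the last but one, at 8.24%, and include 50% sense.

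The difference between exons and introns did not pass adjustment. The exons of very long genes held 15 plasmid sites, 6.48 per Mb, against 11.0 in introns, with a ratio of 0.589 (0.329 to 0.974, unadjusted p = 0.0353, adjusted p = 0.130, exact binomial test). In 187 of the 201 genes no plasmid site was exonic. The stretches where a very long gene overlaps another gene of any kind had 12.5 sites per Mb (159 sites), and the remainder had 10.8 (1709 sites). The ratio was 1.16 (0.979 to 1.36), and the interval included 1.

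The plasmid sites with the most reads were intronic. Ctnna3, an alpha-catenin of heart and testis, held the best supported one, with 30 reads at chr10:64594676 in sense orientation, and had 25 sites in 1574 kb (15.9 per Mb). Inpp4b, a phosphoinositide phosphatase, held an antisense site with 28 reads at chr8:82102602, which is most of the 38 reads in its 7 sites. Cntnap5b, of the contactin-associated family, held a sense site with 18 reads at chr1:99849213.

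The 11 remobilized sites lay in 10 genes, and all were intronic. Sgcd, the delta subunit of the sarcoglycan complex of muscle, held an antisense site with 3 reads at chr11:47876317, 113 kb from its start. Kirrel3, an immunoglobulin adhesion molecule, held a sense site with 3 reads at chr9:34768335, 282 kb from its start. These were the only 2 sites with more than 1 read. Fgfr2 was the only gene with 2 sites, of 1 read each, and both lay within other genes inside its long model, Gm4275 and Zranb1. The remaining sites, of 1 read each, included those in Npas3 (a bHLH-PAS transcription factor), Lpp (a LIM-domain protein), Etl4, B3galt1 (a galactosyltransferase), St6galnac3 (a sialyltransferase) and Dab1 (the Reelin adaptor). The nearest of the 11 to a gene's start was that of Sgcd, and 0 lay in the first 50 kb of a very long gene. That stretch covers 9.97 Mb in all, and a count of 0 there allows up to 0.370 sites per Mb (95% exact Poisson). The density of other protein-coding genes, 0.291, is under that limit, so a difference at the starts was not detectable at this depth. In the plasmid pool these 10 genes had between 7.18 (B3galt1) and 17.1 (St6galnac3) sites per Mb, within the range of the other very long genes.

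The annotated spans are those of GENCODE, and RefSeq gave some genes shorter and some longer ones. Of the 201, 196 matched a RefSeq gene on GRCm38.p6 by symbol or identifier, 188 of them with a span of 500 kb or more, and 8 were shorter there, including Slc7a11, a cystine transporter (134 kb), and Rasgef1b (35.5 kb). In the other direction, Tenm3 spans 616.3 kb in GENCODE and 1297 kb in RefSeq, so its density above is that of the shorter model, and Robo2, an axon guidance receptor named after its values were seen, spans 520.0 kb and 1555 kb. Over the 188 genes the density ratio to other protein-coding genes was 0.763 in the plasmid pool and 0.198 in the remobilized pool. The 21 genes called above their chromosome in the plasmid pool were other genes, among them short models such as Gm10800 (0.755 kb, 24 sites) and Gm10717 (7.87 kb, 36 sites), named after their values were seen. Without those 21 the plasmid ratio was 0.794 (0.755 to 0.834).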

How the data were processed

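Per the labels' protocols, RNA made by T7 polymerase on purified genomic DNA was sequenced with a stranded total RNA kit. Each file deposited by the authors lists single-base positions with a strand and a whole-number read count, with no normalization stated. The submitters' processing notes name BWA, FastQC, deepTools and the build mm10 (GRCm38), without versions or roles. The treatment of duplicate reads and any mapping-quality filter are not given in the sources used here. Of 13 samples, 12 were analysed here, and the parental line was not.

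Lines within 10 bp on either strand were merged to 1 site at the position with the most reads, with no minimum of reads. Densities were not corrected for TA content or mappability. Genes were taken from GENCODE M21. Density is sites over the bases of the union of a gene class. In the comparisons of very long with other protein-coding genes, a base in a very long gene counted there only. In the classes by span, a base in genes of different classes counted in each of those classes. A site in 2 very long genes was counted once in the density of a class, and for each gene in the values of single genes. Intergenic sequence lay outside every annotated gene, from position 3000001 to the last gene of a chromosome. Densities were compared with two-sided exact binomial tests conditional on the sites of both classes, shares with exact binomial or Fisher's exact tests. Benjamini-Hochberg adjustment was made over the 2 density tests against other genes, over the other 11 tests, over the 2 tests of single-read shares, which were added after the data were seen, and over all 19695 genes in the per-gene test, at a threshold of 0.05. Intervals are 95% exact Poisson or Clopper-Pearson.

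Genes named are the 10 longest, the 8 densest and 8 sparsest in the plasmid pool, those with 2 or more remobilized sites, those departing from their chromosome after adjustment, the 3 best supported sites of each pool, the 3 genes on either side of the span limit, and genes with a clone site or a site in both pools. The text also names genes outside this rule, chosen after their values were seen: Ctnnd2, Frmd4a and Ank2 for their sequences, Slc7a11, Rasgef1b, and genes with a remobilized site of 1 read. A few genes that this rule or the text would name are not reported here. The genes and lists were chosen with earlier results of these data known. Alternatives changed the merging, the read minimum, the span limit, the chromosomes, the genes left out, the reference genes and the reference rate. Statistics were tested on simulated data. Python 3.11.15, numpy 2.4.6, scipy 1.17.1, statsmodels 0.14.6 and matplotlib 3.10.9 were used.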

Additional observations from a re-analysis of the deposited data

Results flagged for a closer look

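The share of protein-coding sites that fell in very long genes differed between the pools by a test of the difference itself. After remobilization it was 4.74% (11 of 232), and with transposons from plasmids 14.9%, an odds ratio of 0.285 (0.140 to 0.522, adjusted p = 2.22e-05, two-sided Fisher's exact test). Over 10 alternatives the odds ratio ranged from 0 to 0.327 and the adjusted p from 5.72e-08 to 0.0448. The pools also differed in depth, at 2619 and 78338 reads, and in the share of sites with 1 read within very long genes, at 81.8% and 44.0%; the part of these in the difference was not tested.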

How the results depend on the processing

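No paired analysis was possible because each group has 1 library. The ratio of density to other protein-coding genes stayed below 1 in both pools when any 1 chromosome was left out, from 0.766 to 0.786 in the plasmid pool and from 0.192 to 0.250 in the remobilized pool. Over 14 other alternatives each it ranged from 0.747 to 0.891 and from 0 to 0.374. An interval widened by the spread among genes was 0.693 to 0.892 in the plasmid pool and 0.0942 to 0.523 in the remobilized pool. With at least 5 reads the plasmid ratio was 0.891 and no longer passed (adjusted p = 0.227, exact binomial test), and the remobilized ratio to intergenic sequence was 0, from 0 sites (adjusted p = 0.224, exact binomial test); fewer sites enter both. With at least 2 reads the remobilized sense and upstream shares rested on 2 sites, and both were at the even share of 50%. Values that changed side, with at least 2 reads, were the plasmid ratios to intergenic sequence (1.04) and of the first 50 kb (0.876) and the plasmid upstream share (49.6%). With at least 5 reads they were the plasmid ratios to intergenic sequence (1.32) and to flanks (1.18) and the plasmid sense share (53.2%). With a span limit of 300 kb they were the plasmid ratios to intergenic sequence (1.02) and flanks (1.05) and the upstream share (49.7%), which was 49.6% at 1 Mb. Of these, only the 1.32 passed its test, and the cause was not tested. The count of all genes departing from their chromosome in the plasmid pool, 21, was 5 with merging within 1 kb and 4 with at least 5 reads, and in the remobilized pool, 2, it was 0 in both. Of 28 alternatives for the density of a list relative to all very long genes, 3 fell outside the interval of the main value, each with at least 5 reads. The list of glutamate and GABA receptors went from 0.999 to 0.240 (2 sites, interval 0.0290 to 0.866). Axon guidance went from 1.02 to 0.811 (12 sites, 0.419 to 1.42) and transcription factors from 0.989 to 1.28 (11 sites, 0.640 to 2.30). The intervals of these last lists included both 1 and the main value. With at least 5 reads the remobilized orientation and position gave no value. Depth limits single genes: a gene at the limit of 500 kb is expected to hold about 6 plasmid sites.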
